A study of Mus musculus with 6 samples.

Results

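Transcripts of the insulin and insulin-like growth factor (IGF) axis were examined in cultured mouse hepatocytes, the main cells of the liver. The set held 10 genes: the IGF binding protein genes *Igfbp1*, *Igfbp2*, *Igfbp3* and *Igfbp4*, the growth factor *Igf1*, its plasma carrier subunit *Igfals*, the receptors *Igf1r* and *Insr*, and the receptor substrates *Irs1* and *Irs2*. All 10 symbols were found among the 55487 gene rows, and all 10 were among the 12741 genes that passed the filter on low counts. The genes were chosen by their levels and their C75S to WT differences in these same libraries, so their values are given as a description and carry no test. The cells came from mice of 6 to 8 weeks that were either homozygous for AEG-1-C75S or wild type (WT), with 3 libraries in each of the 2 groups. AEG-1, encoded by *Mtdh*, is an endoplasmic reticulum protein, and C75S replaces the cysteine at residue 75, which can carry a palmitoyl group, with a serine. Both genotypes were offspring of heterozygous parents, and every library carries the treatment label Control, so no agent separated the groups. Total RNA was taken 48 h after the cells were isolated. Nothing in the labels ties each library to its own mouse, so n counts libraries and the spread between them may be partly technical. What the culture medium held is not given in the sources used here.

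IGF1 is made by the liver under growth hormone and circulates bound to IGF binding proteins, which prolong its life in plasma and set how much reaches its receptor. Most circulating IGF1 sits in a complex with IGFBP3 and the acid-labile subunit encoded by *Igfals*. Insulin acts on hepatocytes through the insulin receptor and the substrates IRS1 and IRS2 to phosphoinositide 3-kinase and AKT, which hold the FOXO transcription factors out of the nucleus. *Igfbp1* and *G6pc* are textbook FOXO targets that insulin represses.

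Total gene counts ranged from 16944723 to 21044292 per library, and 3 counts corresponded to 0.143 to 0.177 CPM, counts scaled to 1e+06 per library. Hepatocyte markers summed to 62733 to 74974 CPM in C75S and 70651 to 78300 CPM in WT. That sum was mostly *Alb*, at mean levels of 60607 and 67143 CPM. Of the 8 hepatocyte markers, 4 had a higher and 4 a lower estimate in C75S. The 1 called, *Cyp2e1*, was higher in C75S, at 114 against 92.0 CPM (edgeR adjusted p = 0.00908). Lymphocyte and leukocyte markers summed to at most 0.474 CPM, and 7 of 8 Kupffer cell and macrophage markers were too low to test. Endothelial markers summed to 31.4 to 41.9 CPM in C75S and 29.7 to 40.5 CPM in WT, and stellate cell and fibroblast markers to 53.9 to 70.5 and 69.4 to 91.9 CPM. The stellate cell and fibroblast sum was mostly *Reln*, at mean levels of 58.7 and 75.2 CPM (edgeR adjusted p = 0.394). Of the 4 tested markers of that list, 2 had a higher and 2 a lower estimate in C75S. Cholangiocyte markers summed to 144 to 197 CPM in C75S against 122 to 133 CPM in WT, mostly *Spp1*, at mean levels of 131 and 91.0 CPM, while *Sox9* was at 28.5 and 29.7 CPM, *Epcam* at 0.05 and 0.30 CPM, and *Cftr* at 0. Fewer cells of a type and less RNA per cell cannot be told apart in such bulk libraries.

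The promoters of the axis are shown first because a class of FOXO targets carries a known insulin response sequence. RefSeq promoter windows (GRCm38.p6) were matched for 9 of the 10 genes, with *Insr* the gene without one. The 250 bases before each start site were searched on both strands for CAAAACA, which reads TGTTTTG on the opposite strand and is the core of the insulin response sequence. It was found in 3 of the 9 genes, *Igfbp1*, *Irs1* and *Irs2*. Counted by window, it was in 3 of the 12 windows of these 9 genes and in 5.56% of all 32851 windows of the same length. Stretches around these cores are printed below 5′ to 3′ on the strand of the gene, with the cores in capitals. They lie at chr11:7197649-7197715 (plus strand), chr1:82291440-82291580 (minus strand) and chr8:11008930-11008996 (minus strand).
Igfbp1: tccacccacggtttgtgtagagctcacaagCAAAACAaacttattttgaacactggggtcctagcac
Irs1: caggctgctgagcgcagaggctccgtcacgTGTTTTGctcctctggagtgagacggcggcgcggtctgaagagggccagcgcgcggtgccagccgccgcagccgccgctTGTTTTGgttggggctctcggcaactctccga
Irs2: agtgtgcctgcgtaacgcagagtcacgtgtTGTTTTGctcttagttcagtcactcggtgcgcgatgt
The core in *Igfbp1* began 108 bases before the start site, and *Irs1* had matches beginning 111 and 32 bases before it. The promoter of *Igfbp2*, the gene with the widest gap between genotypes, held no such core in either of its windows. Its first window, 67.2% G and C against a median of 52.4% over all windows, held 3 matches to the GC box GGGCGG, in either orientation. At least 1 match was present in 32.7% of all windows and in 6 of the 12 windows of the 9 genes. Those 6 belonged to 5 genes, *Igfbp2*, *Irs1*, *Igf1r*, *Irs2* and *Igfals*. The 3 matches of *Igfbp2* are capitalised in the following stretch of chr1:72824347-72824468 (plus strand).
Igfbp2: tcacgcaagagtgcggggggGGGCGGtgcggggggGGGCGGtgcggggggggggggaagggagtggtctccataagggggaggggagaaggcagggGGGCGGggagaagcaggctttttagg
*Igfals* had 3 windows. They held 2 matches to TTCNNNGAA, the letters bound by STAT5, which 7.02% of all windows held: TTCTCAGAA and TTCCTAGAA. They also held the only match among these genes to the forkhead core, GTAAACA in either orientation, found in 3.17% of windows. A match is a run of letters and was not tested for binding.

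The binding proteins were described first. *Igfbp2* (ENSMUSG00000039323, chromosome 1, 72824503 to 72852474, plus strand) encodes a binding protein abundant in fetal liver and in fasting. Its level was 84.5, 77.7 and 90.8 CPM in C75S replicates 1 to 3 and 24.6, 26.3 and 23.4 CPM in the WT replicates. Every C75S library lay far above every WT library. The means were 84.3 ± 6.56 and 24.8 ± 1.45 CPM (SD, n = 3 each), a ratio of 3.40 and a log2 fold change of 1.76 (SE 0.07). The counts behind them were 1471 to 1697 in C75S and 483 to 540 in WT. Leaving out single libraries moved the log2 fold change between 1.71 and 1.82. No reads fell on the opposite strand of this gene in any library.

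*Igfbp1* (ENSMUSG00000020429, chromosome 11, 7197782 to 7202546, plus strand) encodes the binding protein that falls after feeding. It was measured at 167, 140 and 168 CPM in the C75S libraries and 174, 196 and 171 CPM in WT. All C75S libraries lay below all WT libraries, though the nearest pair, C75S replicate 3 and WT replicate 3, were at 168 and 171 CPM. The means were 158 ± 15.8 and 180 ± 13.4 CPM (SD, n = 3 each), a difference of -12.2% and a log2 fold change of -0.19 (SE 0.07). C75S replicate 2 and WT replicate 2 widened that gap, and the log2 fold change was -0.11 without C75S replicate 2 and -0.13 without WT replicate 2.

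*Igfbp3* (ENSMUSG00000020427, chromosome 11, 7206086 to 7213923, minus strand), the main carrier of IGF1 in plasma, was far scarcer. It was at 9.70, 8.25 and 7.49 CPM in the C75S libraries and 6.98, 5.90 and 5.63 CPM in WT. The libraries did not overlap, but C75S replicate 3 and WT replicate 1 differed by less than the SD within either genotype. The log2 fold change was 0.46 (SE 0.15), between 0.35 without C75S replicate 1 and 0.56 without WT replicate 1. In liver *Igfbp3* is known mainly from cells other than hepatocytes. Of 5 tested endothelial markers, 3 were higher in C75S without overlap between genotypes, as were 9.02% of all tested genes. Among the 3 was *Lyve1* at 2.47 ± 0.47 against 1.36 ± 0.26 CPM (SD, n = 3 each). None of the 5 passed an adjusted p under 0.05 in edgeR's quasi-likelihood test. An unadjusted p under 0.05 was seen for 2 of them and for 13.4% of all tested genes. *Stab2*, the most abundant of the 5, was at 24.9 ± 4.88 and 26.4 ± 5.75 CPM. The part of such cells in the *Igfbp3* values was not tested.

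*Igfbp4* (ENSMUSG00000017493, chromosome 11, 99041244 to 99054392, plus strand), which binds IGFs until a protease of the pappalysin family cuts it, had the highest counts of the 4. The C75S libraries held 320, 311 and 294 CPM and the WT libraries 263, 260 and 286 CPM. The genotypes did not overlap. The log2 fold change was 0.19 (SE 0.05), and it lay between 0.17 and 0.24 when single libraries were left out. *Igfals* (ENSMUSG00000046070, chromosome 17, 24865997 to 24882010, plus strand) stood at 25.1, 23.9 and 26.4 CPM in the C75S libraries and 18.3, 23.2 and 21.2 CPM in WT. The C75S libraries lay above all WT libraries, with C75S replicate 2 and WT replicate 2 closest. The log2 fold change was 0.26 (SE 0.09), and 0.18 without WT replicate 1.

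**Figure D1:**
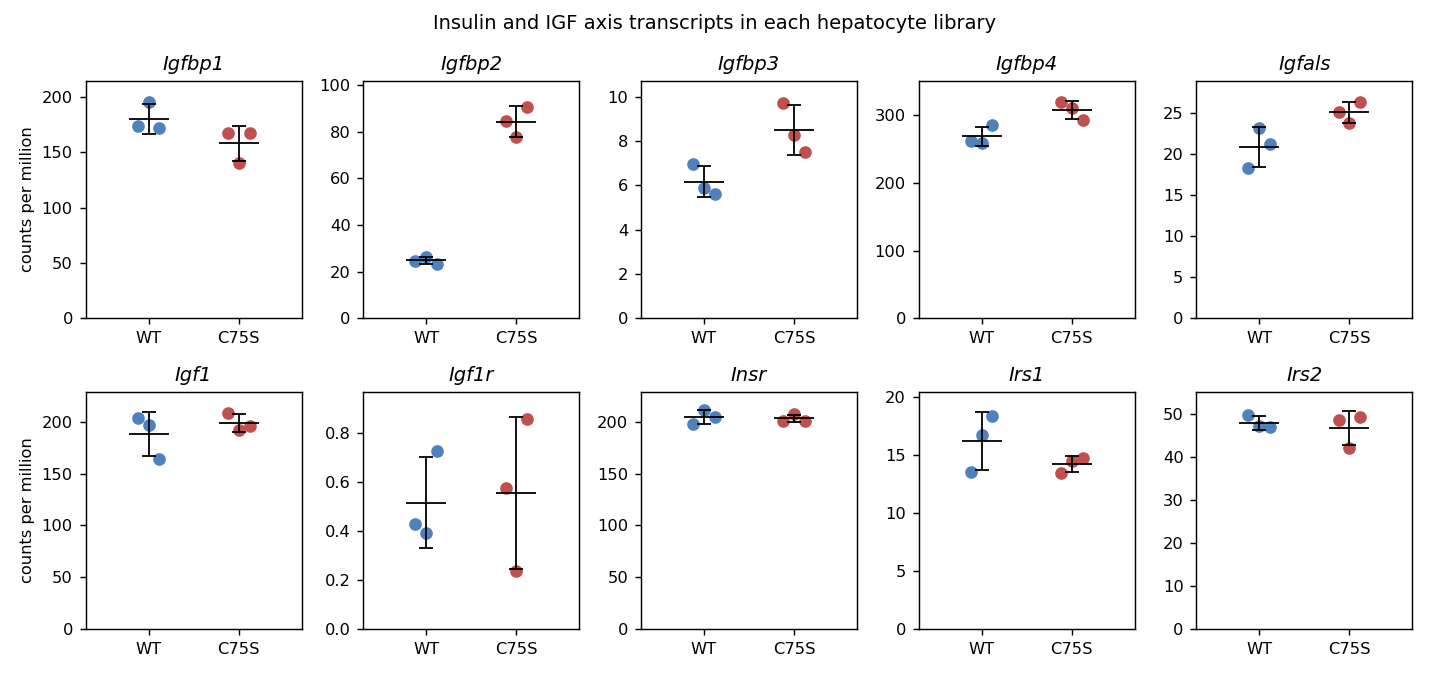
CPM (vertical axes, from 0) of the 10 genes in each library. Points are libraries, blue for WT and red for C75S, and bars show the mean and SD of 3. *Igfbp2* has the widest gap, from 23.4 to 26.3 CPM in WT and 77.7 to 90.8 CPM in C75S, while *Insr* overlaps around 200 CPM.

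The ligand and the receptors overlapped between genotypes. *Igf1* (ENSMUSG00000020053, chromosome 10, 87858265 to 87937042, plus strand) was at 209, 192 and 196 CPM in the C75S libraries and 204, 197 and 165 CPM in WT. WT replicate 3 was the lowest library, and the log2 fold change of 0.08 (SE 0.07) became -0.01 without it. *Insr* (ENSMUSG00000005534, chromosome 8, 3122061 to 3279617, minus strand) was at 201, 207 and 201 CPM in the C75S libraries and 198, 211 and 205 CPM in WT, with a log2 fold change of -0.01 (SE 0.05). Its coefficient of variation was 1.79% in C75S, the smallest of the 10 genes, and 3.30% in WT, next to 3.29% for *Irs2*. *Igf1r* (ENSMUSG00000005533, chromosome 7, 67952827 to 68233668, plus strand) was barely detected, with 10, 5 and 16 counts in C75S and 9, 8 and 15 counts in WT. At that depth its log2 fold change of 0.09 had an SE of 0.52, and its sign turned when C75S replicate 3, WT replicate 1 or WT replicate 2 was left out (-0.38, -0.03 and -0.07) and in limma-voom (-0.04).

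*Irs1* (ENSMUSG00000055980, chromosome 1, 82233101 to 82291416, minus strand) and *Irs2* (ENSMUSG00000038894, chromosome 8, 10984681 to 11008458, minus strand) encode the docking proteins that pass the signal of the insulin receptor to phosphoinositide 3-kinase. *Irs1* was at 13.4, 14.5 and 14.7 CPM in the C75S libraries and 13.5, 16.7 and 18.3 CPM in WT. WT replicate 1 lay within the C75S range, and the log2 fold change of -0.19 (SE 0.11) ranged from -0.30 without WT replicate 1 to -0.09 without WT replicate 3. *Gm9747* lies on the opposite strand within *Irs1*, and with strands pooled the value was -0.29. *Irs2* was at 48.7, 42.3 and 49.4 CPM in the C75S libraries and 49.9, 47.2 and 47.0 CPM in WT, a log2 fold change of -0.04 (SE 0.07). The genotypes overlapped for both.

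**Figure D2:**
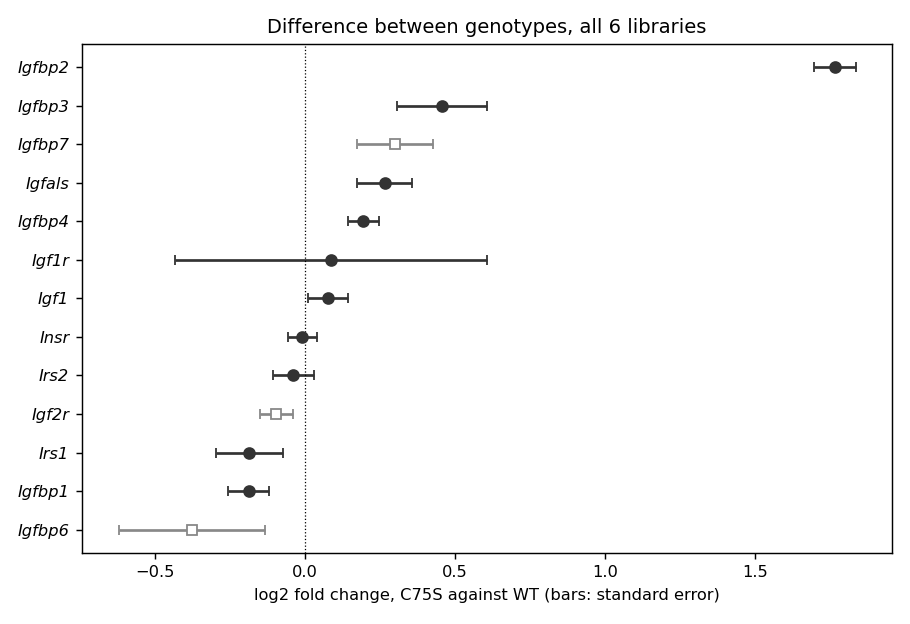
Log2 fold change of C75S against WT (horizontal axis) with its standard error for the 10 genes (filled circles) and for *Igfbp6*, *Igfbp7* and *Igf2r* (open squares). *Igfbp2* stands at 1.76 and the other points lie between -0.38 and 0.46.

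In the fit over all genes, 2 of the 10 genes, *Igfbp2* and *Igfbp4*, had an adjusted p under 0.05 (Benjamini-Hochberg, edgeR's quasi-likelihood test), both higher in C75S. Of all 12741 tested genes 3.11% passed, 1.74% higher and 1.37% lower in C75S. *Igfbp4* lost that call when any of C75S replicates 1 and 2 and WT replicates 1 and 2 was left out, leaving 1 of the 10. Genotypes did not overlap for 5 of the 10, with 4 higher and 1 lower in C75S, where 18% of all tested genes showed no overlap, 9.02% higher and 8.96% lower. The genes were chosen with this contrast in view, so nothing is read from these counts. The median log2 fold change was 0.08 over the 10 genes and -0.003 over all tested genes.

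Levels of different genes were compared per length, as TPM, the length-scaled counterpart of CPM, computed from the counts and the annotated exon length. In WT the order was *Igfbp1* (350 ± 25.96 TPM), *Igfbp4* (180 ± 8.65), *Igf1* (56.4 ± 6.63), *Insr* (44.0 ± 1.31), *Igfbp2* (39.7 ± 2.39), *Irs2* (22.5 ± 0.86), *Igfals* (19.5 ± 2.24), *Igfbp3* (5.83 ± 0.71), *Irs1* (5.23 ± 0.77) and *Igf1r* (0.09 ± 0.03) (SD, n = 3 each). The ranges of neighbours in that order overlapped for *Igfbp3* and *Irs1* only. *Igfbp1* in WT exceeded 97.9% of tested genes and *Igf1r* 0.071%. In C75S *Igfbp2*, at 135 ± 8.89 TPM, moved from rank 5 to rank 3, above *Igf1* at 59.8 ± 4.10 TPM, while *Igfbp1* (308 ± 31.4 TPM) and *Igfbp4* (207 ± 15.3 TPM) kept the first places. These ranks of the binding proteins were the same when the longest annotated transcript was used as the length. *Igfals* and *Irs2* were the pair whose ranges overlapped in C75S.

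The makeup of the binding protein pool differed between the genotypes. *Igfbp2* made up 18.9%, 19.4% and 20.6% of the summed TPM of *Igfbp1* to *Igfbp7* in the C75S libraries and 6.68%, 6.72% and 6.30% in the WT libraries. *Igfbp1* made up 45.2%, 42.3% and 46.1% in C75S and 57.0%, 60.5% and 55.8% in WT. *Igfbp4* held 30.1% ± 2.32 and 29.9% ± 2.18 (SD, n = 3 each), so its share overlapped. *Igfbp1*, *Igfbp2* and *Igfbp4* together made up 94.2% ± 0.29 in C75S and 94.3% ± 0.76 in WT. The ratio of *Igfbp1* to *Igfbp2* TPM was 2.27 ± 0.11 in C75S and 8.80 ± 0.24 in WT. The summed pool stood at 741, 646 and 687 TPM in C75S and 595, 627 and 593 TPM in WT, and relative to *Igf1* it was 11.6 ± 0.44 and 10.8 ± 1.23. The pool was larger in every C75S library, whereas its ratio to *Igf1* overlapped. Mean pools were 691 TPM in C75S and 605 TPM in WT. Of these *Igfbp2*, a gene chosen on this contrast, held 135 and 39.7 TPM, *Igfbp4* 207 and 180 TPM, and *Igfbp1* 308 and 350 TPM. The pool size and the *Igfbp1* share are thus not independent of the *Igfbp2* difference. The share depends on the length used, and the values with another length are given with the processing alternatives.

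**Figure D3:**
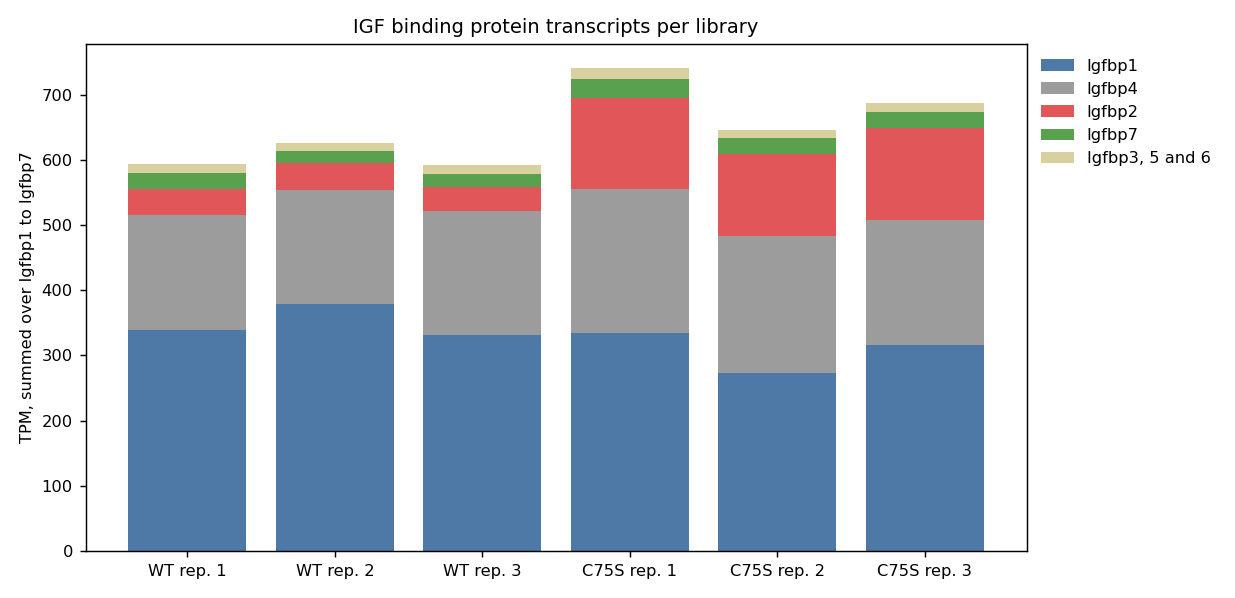
TPM of the IGF binding protein genes stacked by library (vertical axis from 0), WT on the left and C75S on the right. The *Igfbp2* layer is 6.30% to 6.72% of the bar in WT and 18.9% to 20.6% in C75S.

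Among the family members outside the set was *Igfbp7*, a low-affinity relative made largely by vascular cells. It was at 10.5 ± 0.51 CPM (C75S) and 8.55 ± 0.96 CPM (WT) (edgeR adjusted p = 0.269). Its C75S libraries lay above all WT libraries, as for 9.02% of all tested genes. Its unadjusted edgeR p was 0.0262, and 13.4% of all tested genes had one under 0.05. *Igfbp6*, which prefers IGF2, was at 2.25 ± 0.53 and 2.91 ± 0.32 CPM (edgeR adjusted p = 0.541). *Igf2r*, which takes IGF2 to lysosomes, was at 193 ± 11.4 and 206 ± 11.4 CPM (edgeR adjusted p = 0.472). *Igfbp5* had 2 to 11 counts per library and *Igf2* 2 counts in C75S replicate 1 and 0 in the other libraries, so neither was tested. *Ins1*, *Ins2*, *Insrr* and *Igfbpl1* had no counts. Of 6 IGFBP proteases and their inhibitors, 3 could be tested. Of these, 0 passed and 0 had an unadjusted p under 0.05, where 3.11% and 13.4% of all tested genes did. The DESeq2 and limma-voom counts for these lists were also 0.

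Some of the binding protein genes are neighbours. *Igfbp1* and *Igfbp3* end 3.54 kb apart on opposite strands, with the C75S mean lower for the first and higher for the second. *Igfbp2* and *Igfbp5* end 5.46 kb apart, and *Igfbp5* was near the floor in both genotypes. Nearest tested genes on either side of the 10 genes numbered 17 once members were left out, and *Insr* had one on a single side. Of these, 1 passed in edgeR's test over all genes, where 3.11% of all tested genes did, and 8 had an unadjusted p under 0.05, where 13.4% of all tested genes did. *Col4a1*, a basement membrane collagen gene 190 kb from *Irs2*, was higher in C75S by 0.31 on the log2 scale (edgeR adjusted p = 0.00078), with means of 134 ± 3.11 CPM against 108 ± 6.82 CPM in WT (SD, n = 3 each). The neighbours of *Igfbp2* were *Rpl37a*, with a log2 difference of 0.21 and an edgeR adjusted p of 0.533, and *Tns1*, 1058 kb away, with -0.17 and 0.0592. *Tns1* was under 0.05 in 6 of 14 alternatives, among them DESeq2 (adjusted p = 0.0171). Those of the other binding protein genes were *Adcy1* (0.03), *Tns3* (-0.14), *Top2a* (0.49) and *Smarce1* (0.003), with edgeR adjusted p-values of 0.964, 0.255, 0.153 and 0.993.

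Downstream of the receptors, 3 of 17 tested FOXO factors and FOXO target genes were called, *Foxo1*, *Foxo3* and *G6pc*. *Foxo1*, the main FOXO factor of liver, was at 136, 138 and 147 CPM in the C75S libraries and 155, 170 and 169 CPM in WT. It fell by 0.23 on the log2 scale (SE 0.05, edgeR adjusted p = 0.0148), and no C75S library reached a WT library. *Foxo3* was at 78.0, 80.5 and 77.8 CPM in the C75S libraries and 92.5, 99.1 and 86.2 CPM in WT. It fell by 0.23 on the log2 scale (SE 0.06, edgeR adjusted p = 0.021). *G6pc*, which encodes the last enzyme of glucose production, was low, at 1.26, 1.42 and 2.25 CPM in the C75S libraries and 4.46, 3.12 and 2.62 CPM in WT. It fell by 1.05 on the log2 scale (SE 0.27, edgeR adjusted p = 0.0307), again without overlap.

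Of the 17 tested of 18 listed FOXO factors and FOXO target genes, these 3 passed, all lower, where 1.37% of all tested genes were called lower, and 0 were called higher. At an unadjusted p under 0.05 there were 7 in edgeR, where 13.4% of all tested genes were. The median log2 fold change of the list was -0.11, against -0.003 over all tested genes, and 16 of the 17 estimates were below 0. Libraries did not overlap for 5 of the 17, all lower in C75S, where 8.96% of all tested genes were lower without overlap. This list, like the others, was chosen with earlier results of these data known, so its counts and shared direction are a description. *Foxo1* and *Foxo3* are the factors themselves, which leaves *G6pc* as the called target. *Txnip*, at 22.3 ± 1.53 CPM (C75S) and 26.6 ± 1.20 CPM (WT), was one of those not called (edgeR adjusted p = 0.121). *Pck1*, the other classic gluconeogenic target, was at 3.88 ± 1.40 and 3.95 ± 1.01 CPM (edgeR adjusted p = 0.989), and its coactivator gene *Ppargc1a* at 14.7 ± 2.45 and 14.4 ± 0.89 CPM (edgeR adjusted p = 0.947). The insulin response core was found in 2 of the 15 list genes with a promoter window, *G6pc* and *Ccng2*. The calls depended on single libraries, and without C75S replicate 1 or WT replicate 2 the list had 0 calls. *Foxo1* lost its call when C75S replicates 1 and 2 and WT replicates 2 and 3 were each left out (edgeR adjusted p = 0.0675, 0.0614, 0.117 and 0.0693). *Foxo3* lost it without C75S replicates 1 or 3 or WT replicate 2 (0.0731, 0.0768 and 0.187), and *G6pc* without C75S replicates 1 or 2 or WT replicates 1 or 2 (0.151, 0.124, 0.171 and 0.0725) and in limma-voom (0.0576). All 3 stayed lower in C75S in each of 14 alternatives.

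**Figure D4:**
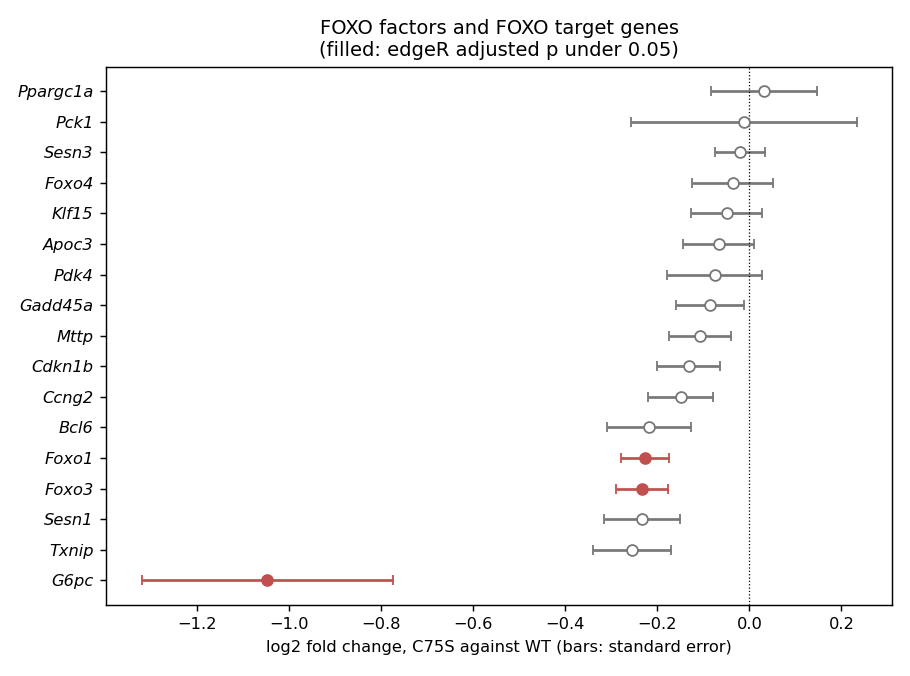
Log2 fold change of C75S against WT (horizontal axis) with its standard error for the 17 tested FOXO factors and FOXO target genes. Filled points passed an edgeR adjusted p of 0.05, and 16 of the 17 points lie left of 0, with *G6pc* at -1.05.

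Signalling genes at and below the receptors were tested as 3 lists. Over all tested genes, 3.11% passed in edgeR and 13.4% had an unadjusted p under 0.05. Of 21 tested receptor adaptors and receptor regulators, 0 passed in edgeR's quasi-likelihood test, with 2 at an unadjusted p under 0.05 and a median log2 fold change of -0.04. These were *Cblb*, a ubiquitin ligase gene, at 79.4 ± 5.10 against 91.2 ± 2.80 CPM (edgeR adjusted p = 0.0544), and *Furin*, whose protease cleaves the insulin proreceptor, at 440.1 ± 15.9 against 496 ± 23.1 CPM (edgeR adjusted p = 0.0691). DESeq2 called 1 of the 21, *Furin* (adjusted p = 0.033), and limma-voom called 0. With the replicate block *Cblb* was called (edgeR adjusted p = 0.0389), and with no filter both were. *Furin* was also called without WT replicate 1 (edgeR adjusted p = 0.0396) and *Cblb* without C75S replicate 2 (0.0276). Of 32 tested genes of phosphoinositide 3-kinase, AKT and mTOR, 0 passed in edgeR, DESeq2 or limma-voom, with 3 at an unadjusted p under 0.05 in edgeR and a median of -0.03. *Akt1* had the smallest p of these, at 159 ± 6.35 CPM (C75S) and 143 ± 2.04 CPM (WT) (edgeR adjusted p = 0.101), while *Akt2*, the main form in insulin action, was at 62.3 ± 3.57 and 61.0 ± 3.94 CPM (edgeR adjusted p = 0.891). Of 13 tested RAS and ERK genes 0 passed in these tools, with 1 at an unadjusted p under 0.05 in edgeR.

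Insulin-induced liver genes numbered 8, and 0 passed in edgeR, DESeq2 or limma-voom, with 1 at an unadjusted p under 0.05 in edgeR. *Srebf1*, the factor through which insulin raises lipid synthesis, was at 67.0 ± 2.50 and 67.8 ± 1.31 CPM (edgeR adjusted p = 0.947). Of 7 genes of growth hormone signalling upstream of *Igf1*, 0 passed in these tools and 0 had an unadjusted p under 0.05 in edgeR. The receptor gene *Ghr* was at 125 ± 5.37 and 132 ± 0.93 CPM (edgeR adjusted p = 0.549). Over all 8 lists 3 of 104 tested genes were called, or 2.88%, against 3.11% of all tested genes. An unadjusted p under 0.05 in edgeR was seen for 15 of the 104, or 14.4%, against 13.4% of all tested genes. Both shares were near those of all tested genes, so nothing about these pathways is read from the counts.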

How the data were processed

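RNA sequencing of 6 hepatocyte libraries was analysed from the deposited raw count tables, which list reads per Ensembl gene in STAR's layout. Per the submitters' processing notes, Trim Galore 0.6.6, STAR 2.7.9a and edgeR 3.36.0 and the builds mm10 and GRCm38 were named; the annotation release is not given in the sources used here. Reverse-strand counts were used (32.9 to 33.9 times the forward-strand counts), without the summary rows of unmapped, multimapping, unassigned and ambiguous reads. Reads on genes were 69.8% to 71.2% of all. Multimapping reads were not counted to genes. Of the gene rows, 55141 had a GENCODE M21 (GRCm38) identifier, whose positions and exon lengths were used.

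Genes were filtered with filterByExpr (minimum count 10, minimum total 15), scaled by TMM and fitted with edgeR 4.0.16 (R 4.3.3) by a robust quasi-likelihood model with genotype as the single term. P-values were two-sided, from the F-test, with Benjamini-Hochberg adjustment over 12741 genes and a threshold of 0.05. The SE is the log2 fold change divided by the root of F. CPM used TMM-scaled library sizes, and TPM used the union of annotated exons. On simulated counts for 12741 genes with 200 changed by 1.5-fold, 71.5% were recovered, 100% of these in the right direction. Of the calls 10.1% were false, a larger share than the 0.05 at which the threshold aims. Pairs of libraries of a genotype differed by 4.05 to 8.99 times counting noise (chi-square per degree of freedom), so none was counted as a duplicate. The libraries were fitted as unpaired, since the sources used here do not say whether the replicate numbers pair them.

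The 10 genes and the lists were chosen with earlier results of these data known. Named were the 10 genes, *Igf2*, *Igf2r*, *Igfbp5* to *Igfbp7*, up to 4 called genes per list, the nearest tested neighbours, and the 5 genes of at least 5 CPM whose centred log2 CPM profile lay closest to that of *Igfbp2*. Other genes were named after their values were seen. The values of 1 listed gene are not reported here. Alternatives were other scalings, no filter, DESeq2 1.42.0, limma-voom (limma 3.58.1), a replicate block, unstranded counts, another gene length and leaving out each library.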

Additional observations from a re-analysis of the deposited data

How the results depend on the processing

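The log2 fold change of *Igfbp2*, a gene chosen on this contrast, was 1.71 to 1.82 over 14 alternatives. The count of 396 called genes ranged from 201 (without WT replicate 2) to 355 (without C75S replicate 3 or WT replicate 1) when a library was left out, with 253 without C75S replicate 1 and 246 without WT replicate 3. It was 573 with no filter, where 23278 genes were tested and the split was 290 higher and 283 lower against 222 and 174. With library-size scaling 248 were higher and 164 lower. The count of the 10 genes called ranged from 1 to 2 without single libraries and was 3 with no filter, which added *Igfbp1*. FOXO list calls ranged from 0 (without C75S replicate 1 or WT replicate 2) to 2, and receptor adaptor calls from 0 to 1. Receptor adaptor calls were 2 with no filter, 1 in DESeq2 and 1 with the replicate block; the cause was not tested. With the replicate block 480 genes, 2 of the 10 genes and 3 FOXO list genes were called. Same-numbered libraries correlated at -0.04 to 0.03 in their deviations from the group means, and not every library correlated best with its own number. These correlations are no evidence of pairing and, with 3 libraries per genotype, cannot exclude it.

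With the longest transcript as the length, shares of the binding protein pool in C75S and WT were 39.4% and 53.7% for *Igfbp1*, 24.5% and 8.63% for *Igfbp2*, and 1.33% and 1.16% for *Igfbp3*. Depth limits *Igf1r*, *Igfbp5* and *Igf2*, at 16 counts or fewer per library.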

Other observations

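The genes whose profile over the 6 libraries lay closest to that of *Igfbp2* were sought among 9393 named genes of at least 5 CPM. Likeness was the root mean square difference of log2 CPM after each gene was centred on its own mean. The 5 closest were *Hsd17b6* (0.19), *Ivl* (0.31), *Mup16* (0.36), *Ccnd1* (0.43) and *Mup1* (0.46). *Hsd17b6*, *Ivl* and *Ccnd1* reached that minimum only through the C75S libraries, with WT means of 2.63, 3.73 and 4.38 CPM. *Hsd17b6*, a steroid and retinol dehydrogenase gene, was at 10.6, 10.1 and 9.84 CPM in the C75S libraries and 3.04, 2.24 and 2.62 CPM in WT. *Mup16* and *Mup1* belong to a family of near-identical copies, so their counts rest on uniquely placed reads and are uncertain.

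Replicate spread differed among the genes of the axis. In WT the coefficient of variation was 11.3% for *Igf1* against a median of 3.89% for tested genes at a like level, and 15.3% for *Irs1* against 7.62%. In C75S it was 9.96% for *Igfbp1* against 3.56% and 4.37% for *Igf1* against 3.61%. Others lay below the median, with *Irs1* in C75S at 4.77% against 7.12%. *Insr* was at 1.79% against 3.67% in C75S and 3.30% against 3.89% in WT. Each coefficient rests on 3 libraries. Counting error alone would give 1.60% for *Igf1* in WT. *Krt19*, a cholangiocyte keratin gene, was the called gene among the markers of other cell types, at 9.52 ± 1.22 CPM (C75S) and 5.47 ± 0.26 CPM (WT) (SD, n = 3 each; edgeR adjusted p = 0.00151). Of the other cholangiocyte markers, *Spp1*, *Krt7* and *Sox9* had log2 fold changes of 0.53, 0.44 and -0.06. *Spp1* was higher in C75S without overlap (edgeR adjusted p = 0.235), as were 9.02% of all tested genes, while *Krt7* and *Sox9* overlapped. *Epcam* was lower in C75S without overlap at 0.05 against 0.30 CPM and too low to test, and *Cftr* was at 0. The part of such cells in the values of the binding proteins was not tested.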
